A study of Mus musculus with 11 samples.

Results

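The 7 genes described here, Pmp22, Mbp, Mal, Prx, Sox10, S100b and Ngfr, are markers of Schwann cells and of the myelin these cells make. They were taken by gene symbol from the 18269 genes of the deposited table of CPM (the reads of a gene scaled to a library total of 1000000). The rule used no values of these genes, but earlier results of these data were known when they were chosen. All 7 also passed the filter that left 13187 genes for testing. The 11 RNA libraries came from the tibialis anterior, a fast muscle of the front of the shin, of C57BL/6 mice, all aged 21 to 24 months. The mice received saline (4 libraries, replicates 2, 3, 4 and 6), serum of young donors (4 libraries, replicates 1 to 4) or young serum that had been depleted of extracellular vesicles (EVs, small membrane-bound particles; 3 libraries, replicates 2, 3 and 4), so the comparisons ask whether young serum, and its vesicles, alter transcripts of aged muscle. The protocol names an injury model, but neither the injury nor the time of sampling is given per library, and nothing states that libraries of a group are different animals. The p-values thus speak only of how much these samples varied, part of which can be technical.

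Schwann cells are the glia of peripheral nerve. In muscle they wrap the intramuscular axons, with a compact myelin sheath around the large motor and sensory fibres, and a non-myelinating kind caps the nerve terminal at the neuromuscular junction. The transcription factor SOX10 keeps the cells in their lineage and, together with EGR2, drives the myelin genes, while NGFR is typical of immature, non-myelinating and denervated Schwann cells. Libraries were made from whole muscle, in which these cells are a small minority, and in such bulk RNA fewer cells of a type and less RNA per cell cannot be told apart.

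Divided by the length of the merged exons, the level of Pmp22 was the highest of the 7, at 16.9 CPM per kb on average over the 11 libraries, followed by Mbp at 4.69 and Prx at 2.55 CPM per kb. Sox10 (1.18), Mal (1.11) and S100b (1.01 CPM per kb) lay close together, and Ngfr was lowest at 0.276 CPM per kb. On mm10, Pmp22 lies on chromosome 11 from 63128982 to 63159547 on the forward strand, and Ngfr on the same chromosome from 95568818 to 95587735 on the reverse strand. Sox10 lies on chromosome 15 from 79154908 to 79165240 and Mal on chromosome 2 from 127633226 to 127656695, both on the reverse strand. S100b lies on chromosome 10 from 76253853 to 76261159 on the forward strand and overlaps Dip2a on the other strand, which was measured at 3.40 to 8.52 CPM. Prx lies on chromosome 7 from 27497388 to 27520214 on the forward strand and overlaps the antisense gene Gm15541, which was measured at 0.0237 to 0.268 CPM. The sources used here do not give whether the counting used strand, so reads of S100b and of Dip2a could not be separated with certainty, and the same holds for Prx and Gm15541.

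Promoters of the genes were read for letters that fit factors of the myelin programme. RefSeq promoter sequences on GRCm38.p6 were used for 5 of the 7 genes, Pmp22 (4 start sites), Mal, Prx, S100b and Ngfr (1 each), while those of Mbp and Sox10 were not analysed here, and the 250 bases before each start were searched on both strands. The SOX core, ACAAAG or ACAATG, was in 0 of the 8 windows, against 25.2% of 32851 promoters of the same length. The EGR core, GNGGGNG, was in 6 of the 8, the windows of Mal, Prx and Ngfr and 3 of Pmp22, against 60.3% of promoters. The TEAD core, GGAATG, the letters read by the partners of YAP and TAZ in Schwann cells, was in 3 of the 8, against 12.6% of promoters, once each before Mal, Prx and the first of the 4 starts of Pmp22, and none of these matches overlapped another of the searched motifs. A match is a description of the letters and shows no binding. The windows of Mal (chr2:127656696-127656945, reverse strand) and of the first Pmp22 start (chr11:63128732-63128981, forward strand) are shown 5′ to 3′ because they hold the TEAD core without any EGR core before Pmp22 and with 1 before Mal; capitals mark the TEAD core (its reverse complement in the Pmp22 window), which begins 89 bases before the Mal start and 173 bases before the Pmp22 start.
Mal: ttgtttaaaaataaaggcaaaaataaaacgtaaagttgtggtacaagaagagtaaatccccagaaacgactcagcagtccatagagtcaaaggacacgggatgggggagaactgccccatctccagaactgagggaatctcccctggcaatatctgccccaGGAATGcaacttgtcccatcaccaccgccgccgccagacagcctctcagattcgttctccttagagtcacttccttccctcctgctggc
Pmp22: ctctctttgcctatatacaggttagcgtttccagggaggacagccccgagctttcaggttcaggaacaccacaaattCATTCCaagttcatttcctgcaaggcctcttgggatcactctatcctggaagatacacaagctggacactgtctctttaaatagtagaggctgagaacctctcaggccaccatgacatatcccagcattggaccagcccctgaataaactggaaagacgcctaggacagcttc

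In units of 1000000 reads, the libraries had depths of 36.4 to 42.2 by the spacing of their lowest values, at which 1 read is worth 0.0237 to 0.0275 CPM. Saline replicates 4 and 6 stood apart from the other 9 libraries by transcripts of other tissues. The skin keratin Krt5 was at 34.5 and 10.2 CPM in them and at most 0.102 CPM elsewhere, the B cell gene Cd79a was at 62.9 and 8.72 CPM, and the summed adipocyte markers reached 6522 CPM in saline replicate 4 against 264 to 667 CPM in the rest. The comparisons with saline are therefore also given without the pair, for the 7 genes and for the other genes named. Genes of central nervous system glia were set beside the 7 genes. Those measured are too few to test the label, and Prx, given with them, is itself 1 of the 7. Of 8 oligodendrocyte genes, Mag, which peripheral myelin shares, and Cldn11 summed to 0.467 to 1.54 CPM and the other 6 were not analysed here, while Prx and Drp2, a pair typical of peripheral and not central myelin, were at 6.10 to 30.1 and 2.75 to 15.7 CPM.

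The myelin structural genes varied more between libraries of a group than between groups. Pmp22, a tetraspan protein of compact myelin whose gene dose is the cause of common inherited neuropathies, was measured at 34.2, 25.4, 54.7 and 51.7 CPM in saline replicates 2, 3, 4 and 6. With young serum it was at 44.2, 22.1, 22.8 and 28.0 CPM in replicates 1 to 4, and with EV-depleted serum at 34.6, 25.9 and 57.6 CPM in replicates 2 to 4. The ranges of the 3 groups overlapped, with 3 of the 4 young serum libraries near the lowest saline library and young serum replicate 1 among the high ones. Mbp, the cytoplasmic protein that zips the myelin membranes together, was at 35.4, 24.3, 44.3 and 54.0 CPM in saline, at 49.1, 20.9, 25.3 and 33.7 CPM with young serum and at 38.3, 27.7 and 65.9 CPM with EV-depleted serum. Its order of libraries was close to that of Pmp22, and EV-depleted replicate 4 was again the highest of the 11.

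Mal, a proteolipid that sorts myelin proteins and lipids to the membrane, was at 4.11, 1.27, 2.84 and 2.77 CPM in saline. It was at 4.59, 1.62, 1.59 and 2.66 CPM with young serum and at 3.59, 2.26 and 6.70 CPM with EV-depleted serum. Prx (periaxin), a scaffold outside compact myelin that ties the Schwann cell membrane to the basal lamina through dystroglycan, was at 14.0, 6.79, 13.4 and 16.5 CPM in saline. With young serum Prx stood at 21.1, 6.10, 8.68 and 13.4 CPM, and with EV-depleted serum at 16.0, 10.3 and 30.1 CPM. For both genes saline replicate 3 and EV-depleted replicate 3 were the lowest of their groups and young serum replicates 2 and 3 lay below the other 2 of theirs, and the highest library of the 11, EV-depleted replicate 4, held 5.26 times the lowest for Mal and 4.93 times the lowest for Prx.

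Sox10, the lineage factor, was at 3.10, 1.83, 4.45 and 3.34 CPM in saline, at 5.07, 2.09, 2.22 and 2.81 CPM with young serum and at 3.16, 2.49 and 5.54 CPM with EV-depleted serum. The groups overlapped over most of their ranges, and the high and low libraries of this regulator were those of the myelin proteins. S100b, a calcium-binding protein used to stain Schwann cells and also made by adipocytes, was at 1.09, 0.733, 1.51 and 1.94 CPM in saline, at 1.86, 0.989, 0.990 and 0.843 CPM with young serum and at 1.97, 1.01 and 3.60 CPM with EV-depleted serum. S100b was highest in EV-depleted replicate 4, with an adipocyte sum of 550 CPM. In saline replicate 4, where the adipocyte sum was 6522 CPM, S100b was at 1.51 CPM.

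Ngfr, the low-affinity neurotrophin receptor, was at 1.63, 0.684, 1.63 and 0.729 CPM in saline. It was at 1.17, 0.549, 1.12 and 0.766 CPM with young serum and at 0.850, 0.337 and 0.984 CPM with EV-depleted serum. Saline replicates 2 and 4 were the highest and EV-depleted replicate 3 the lowest, so Ngfr was the 1 gene of the 7 whose highest library was not EV-depleted replicate 4.

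**Figure D1:**
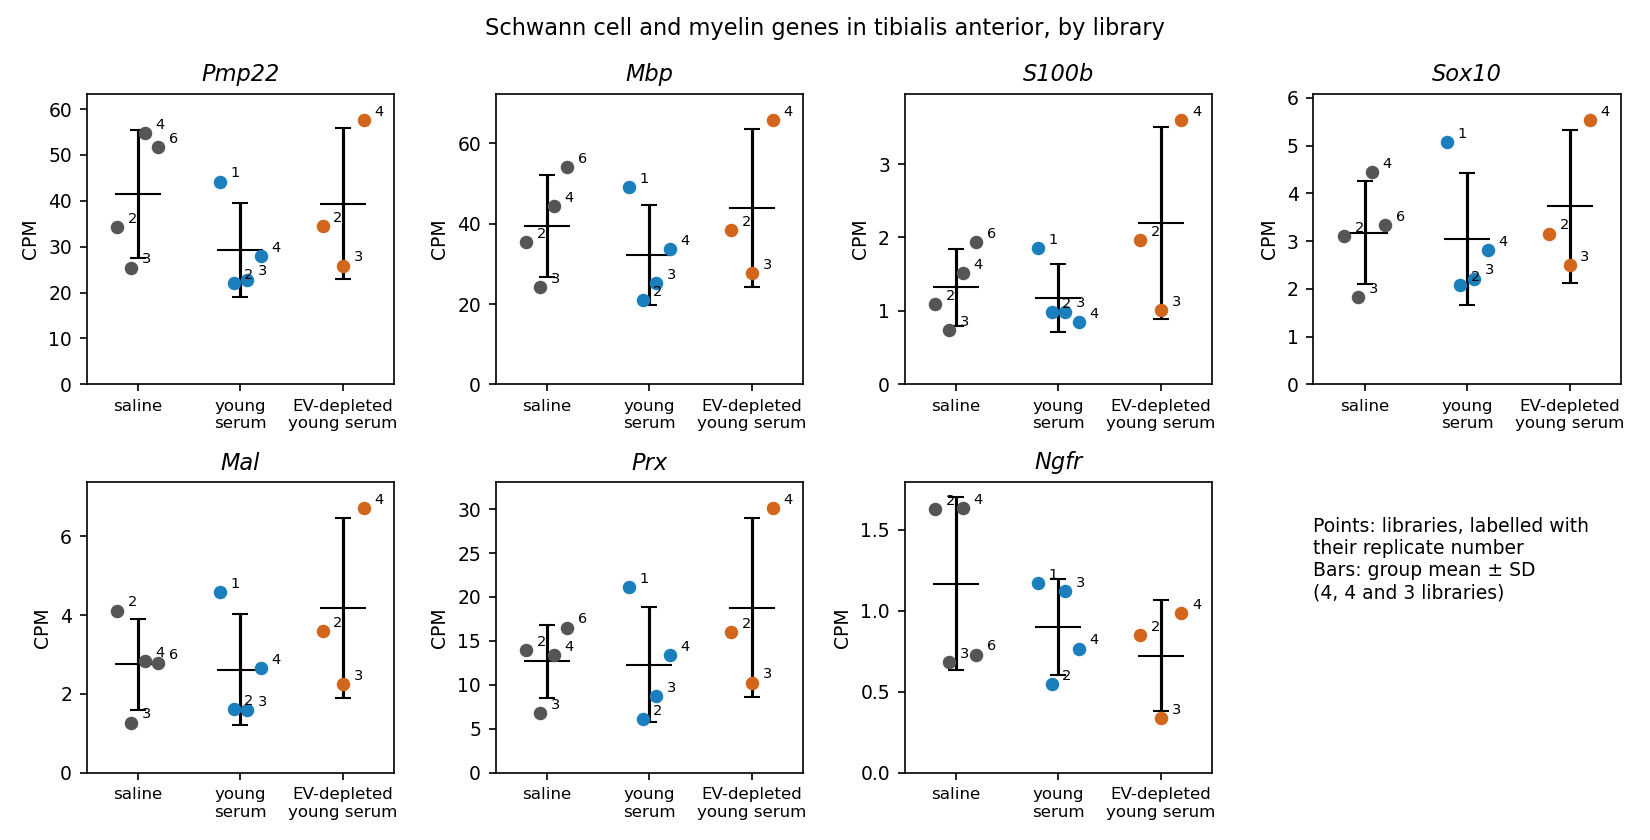
CPM of the 7 genes (y axis from 0) by injection group; points are libraries labelled with their replicate number, and bars are the mean ± SD of 4, 4 and 3 libraries. The groups overlap for every gene, and EV-depleted replicate 4 is the highest library for 6 of the 7.

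The same libraries were high or low for most of the genes. EV-depleted replicate 4 was the highest of its group for 7 of 7 genes and of all 11 libraries for 6 of 7. Young serum replicate 1 was the highest of its group for 7 of 7. At the low end, saline replicate 3 and EV-depleted replicate 3 were each the lowest of their group for 7 of 7 genes, and young serum replicate 2 for 5 of 7. Averaged over the 7 genes, the deviation from the mean of all libraries on the scale of log2(CPM + 1) was 0.77 in EV-depleted replicate 4 and 0.43 in young serum replicate 1, against -0.54 in saline replicate 3 and -0.56 in young serum replicate 2. Each group thus held at least 1 high and 1 low library. Summed over 5 skin keratins, EV-depleted replicate 4 stood at 1.76 CPM and young serum replicate 1 at 1.35 CPM, within the 1.25 to 2.31 CPM of the 9 libraries other than saline replicates 4 and 6. Other marker sums differed. That of fibro-adipogenic progenitors was 528 CPM in the former and 596 CPM, the highest of the 11, in the latter. Their muscle fibre sums, 129363 and 140205 CPM, were the lowest of their groups, and saline replicate 3 had the highest of all, 163241 CPM. Young serum replicate 2, with the lowest average of the 7 genes, stood at 141649 CPM. The part of tissue composition was not tested.

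**Figure D2:**
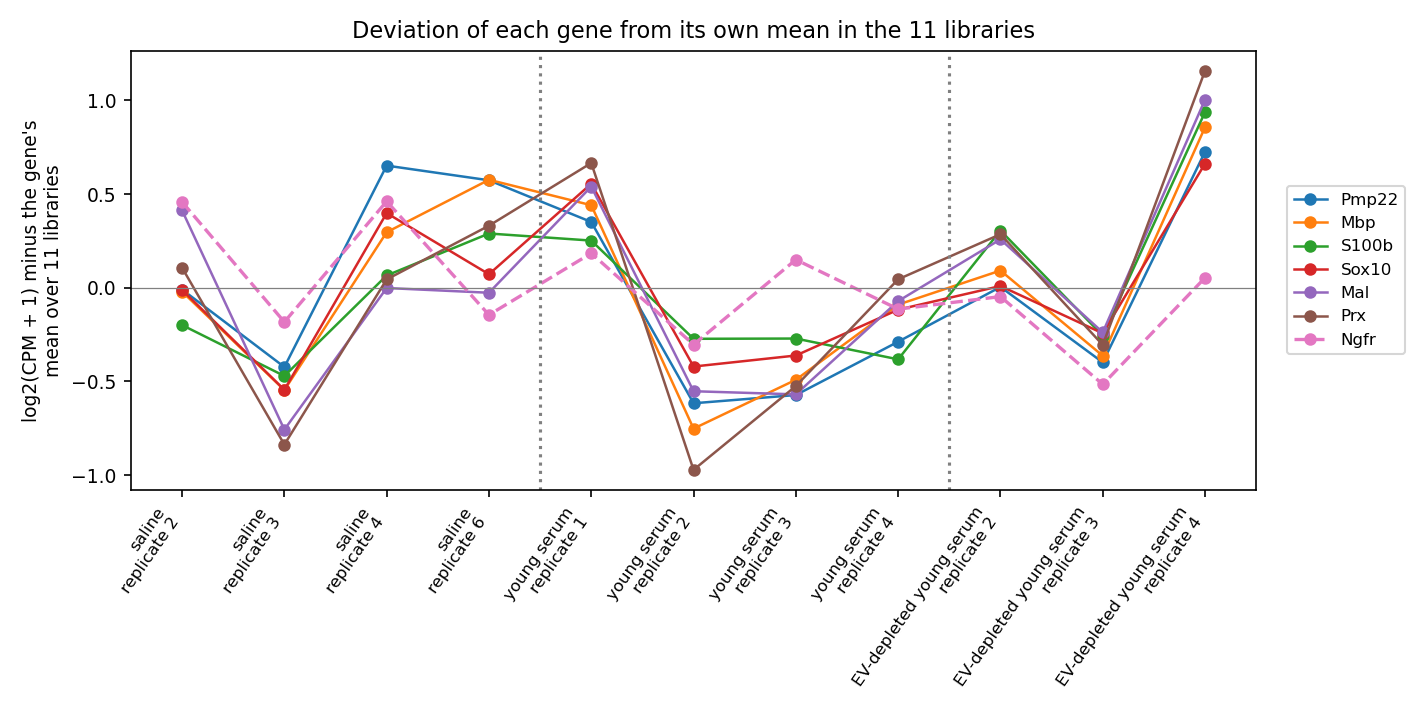
Deviation of log2(CPM + 1) of each gene from its own mean over the 11 libraries (y axis) in each library (x axis, dotted lines between the groups; lines join the points of a gene only to guide the eye, as libraries have no order); the dashed line is Ngfr. The 6 genes other than Ngfr move together, with low points at saline replicate 3 and young serum replicate 2 and the highest at EV-depleted replicate 4.

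Within groups the SD on the log2(CPM + 1) scale was 0.65 for Prx, 0.54 for Mal, 0.53 for Mbp, 0.50 for Pmp22, 0.43 for Sox10, 0.40 for S100b and 0.30 for Ngfr. The median of the 7 was 0.50, against 0.26 over all tested genes. Prx varied more than 95.9% of tested genes and Ngfr more than 62.3%. Of the 500 tested genes nearest in level, the shares were 97% and 57.6%. The scale narrows the spread of low genes. As a coefficient of variation of CPM over the 11 libraries, Ngfr (43.4%) and S100b (55.3%) varied more than Pmp22 (36.5%) and Sox10 (37.6%). The SD within groups enters the standard errors of the comparisons.

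Against saline, no gene of the 7 differed with young serum beyond the spread between libraries. Pmp22 averaged 29.3 ± 10.3 CPM (SD, n = 4) with young serum and 41.5 ± 14.0 CPM (n = 4) in saline, a log2 difference of -0.48 ± 0.31 (SE) with a 95% interval from -1.15 to 0.19, or 0.717-fold on the log2(CPM + 1) scale (limma adjusted p = 0.351, exact permutation p = 0.20). It was the largest of the 7 differences. Mbp averaged 32.2 ± 12.4 against 39.5 ± 12.7 CPM (log2 difference -0.30 ± 0.32), and Ngfr 0.902 ± 0.296 against 1.17 ± 0.533 CPM (-0.17 ± 0.21). For Prx, S100b, Mal and Sox10 the log2 differences lay between -0.11 and -0.06, each less than its SE. Of the 7 genes 0 passed at an adjusted p of 0.05, as did 0% of all tested genes. At an unadjusted limma p under 0.05 there were 0 of the 7, against 21.9% of tested genes, and in 0 of the 7 were the groups free of overlap, against 12.2%. The median log2 difference was -0.11 for the 7 and -0.02 over all tested genes, and it ran from -0.30 (without young serum replicate 1) to -0.05 (without saline replicate 6) when 1 library was left out. All 7 differences were negative, but without saline replicates 4 and 6 they were positive for 5 and negative for 2, with Pmp22 at -0.07 and Mbp at 0.06.

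With EV-depleted serum the means of 5 genes were above saline and those of Pmp22 and Ngfr below, again within the spread. Prx averaged 18.8 ± 10.2 CPM (n = 3) against 12.7 ± 4.14 CPM (n = 4), a log2 difference of 0.47 ± 0.42 with a 95% interval from -0.46 to 1.40 (limma adjusted p = 0.598, exact permutation p = 0.457). Mal averaged 4.19 ± 2.28 against 2.75 ± 1.16 CPM (0.43 ± 0.36) and S100b 2.19 ± 1.31 against 1.32 ± 0.520 CPM (0.41 ± 0.28, 95% interval -0.21 to 1.02). Ngfr averaged 0.724 ± 0.341 against 1.17 CPM (-0.32 ± 0.23). Mbp, Sox10 and Pmp22 differed by 0.12, 0.16 and -0.09. Of the 7, 0 passed at an adjusted p of 0.05, as did 0% of tested genes. None of them, 0 of 7, had an unadjusted p under 0.05, against 12.1% of tested genes, or groups without overlap, against 7.42%. With array weights, which count libraries by how closely they follow their group, 3 of the 7 (S100b, Mal and Prx) had an unadjusted p under 0.05, against 34% of tested genes. The median difference was 0.16, against -0.00 over all tested genes, and it rested on single libraries. Without EV-depleted replicate 4 it was -0.10, with 3 genes above and 4 below saline, Mbp at -0.21, Mal at 0.10 and Prx at 0.08, and without saline replicate 3 it was -0.01, also with 3 above and 4 below. Without EV-depleted replicate 3 it was 0.40, and with saline replicate 4 or 6 left out singly it was 0.30 or 0.29. With both of these left out it was 0.48, with 6 genes above and 1 below.

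Between the 2 sera, 6 of the genes had lower means in the young serum libraries than in the EV-depleted ones, within the spread. The log2 difference was -0.58 ± 0.42 for Prx, -0.50 ± 0.36 for Mal, -0.50 ± 0.28 for S100b (95% interval -1.11 to 0.12, exact permutation p = 0.114), -0.42 ± 0.35 for Mbp, -0.39 ± 0.33 for Pmp22, -0.23 ± 0.30 for Sox10 and 0.15 ± 0.23 for Ngfr. Of the 7, 0 passed at an adjusted p of 0.05, as did 0% of tested genes; the counts at an unadjusted limma p under 0.05 and of groups without overlap were also 0 of 7, against 2.23% and 6.11% of tested genes. With the replicate number as a block, 5 of the 7 (all but Sox10 and Ngfr) had an unadjusted limma p under 0.05, against 3.98% of tested genes. Of the 7, 0 passed the adjusted threshold. Number 1 occurs only in young serum and number 6 only in saline, so the block leaves these libraries out of its estimates. Its median difference of -0.64 was thus the one without young serum replicate 1, the highest of its group for all 7 genes. The labels do not say whether equal numbers mark paired libraries. The median difference of -0.42, against -0.00 over all tested genes, was -0.09 without EV-depleted replicate 4, -0.28 without young serum replicate 2, -0.64 without young serum replicate 1 and -0.70 without EV-depleted replicate 3, when all 7 were lower. This contrast shares its libraries with both comparisons against saline, so the 3 sets of differences are not independent. Two-sided exact tests cannot go below p = 0.0286 for 4 against 4 libraries or 0.0571 for 4 against 3, so in the latter no gene could pass 0.05 by that test. With EV-depleted serum the interval for Prx still allows a log2 change of 1.40 against saline, and a p above the threshold does not show that the groups were alike.

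**Figure D3:**
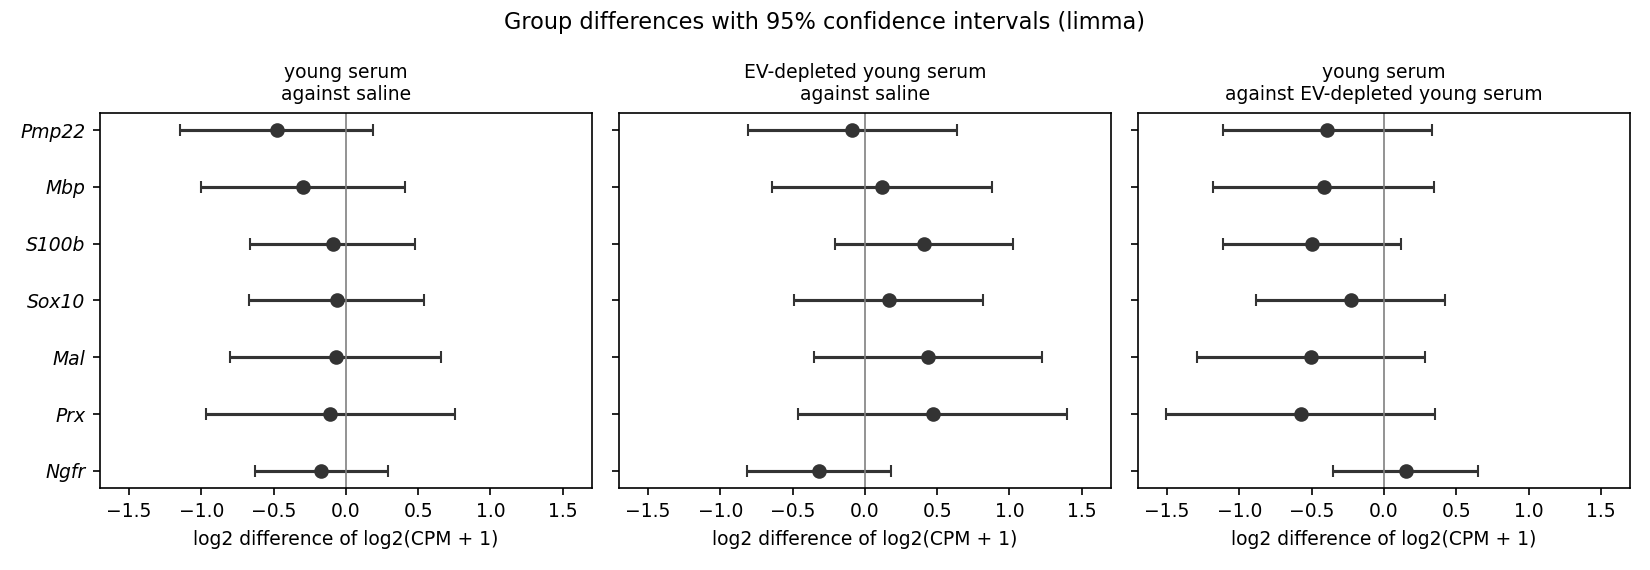
Log2 differences of log2(CPM + 1) (x axis) of the 7 genes in the 3 comparisons, with 95% confidence intervals from limma. Every interval includes 0, and the estimates run from Prx at -0.58 for young against EV-depleted serum to Prx at 0.47 for EV-depleted serum against saline.

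Most of the genes rose and fell together from library to library. Over the 11 libraries, 15 of the 21 pairs among the 7 genes were related at a Benjamini-Hochberg adjusted p of 0.05 (permutation test with 100000 resamples, two-sided), and these were the 15 pairs without Ngfr, with Pearson r from 0.75 to 0.95, Spearman rho from 0.82 to 0.96 and adjusted p from 0.000105 to 0.011. Pmp22 and Mbp, 2 proteins of compact myelin, had r = 0.95 and rho = 0.96, each with the smallest p that the permutations can give (1e-05). Mbp and Prx had r = 0.95 (p = 1e-05) and rho = 0.94 (p = 7e-05), and Mal and Prx r = 0.95 (p = 5e-05) and rho = 0.89 (p = 0.00073). Sox10 was related to Mbp with r = 0.92 (p = 6e-05) and rho = 0.96 (p = 3e-05), and S100b to Mbp with r = 0.87 (p = 0.00025) and rho = 0.87 (p = 0.00095). All genes were scaled by the same library totals, but with libraries rescaled by the median of gene ratios the count was also 15, and after subtraction of group means it was 17, with r from 0.78 to 0.97 for the pairs without Ngfr. Without the 2 libraries farthest from the median of the first gene of a pair, 14 pairs passed, and r for the pairs without Ngfr ran from 0.64 to 0.97 (for Pmp22 and Mbp it was 0.97). Without saline replicates 4 and 6 the count was 15.

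Ngfr was related to none of the other 6 genes by this test, with r from 0.22 (S100b) to 0.51 (Sox10), rho from 0.38 to 0.58 and adjusted p from 0.142 to 0.51. After subtraction of group means r rose to between 0.50 and 0.69 for its 6 pairs, of which 2 passed, with Mal at 0.69 the highest. A difference between the r values of Ngfr and those of the other genes was not tested, and at about 1 CPM Ngfr had the lowest level of the 7.

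**Figure D4:**
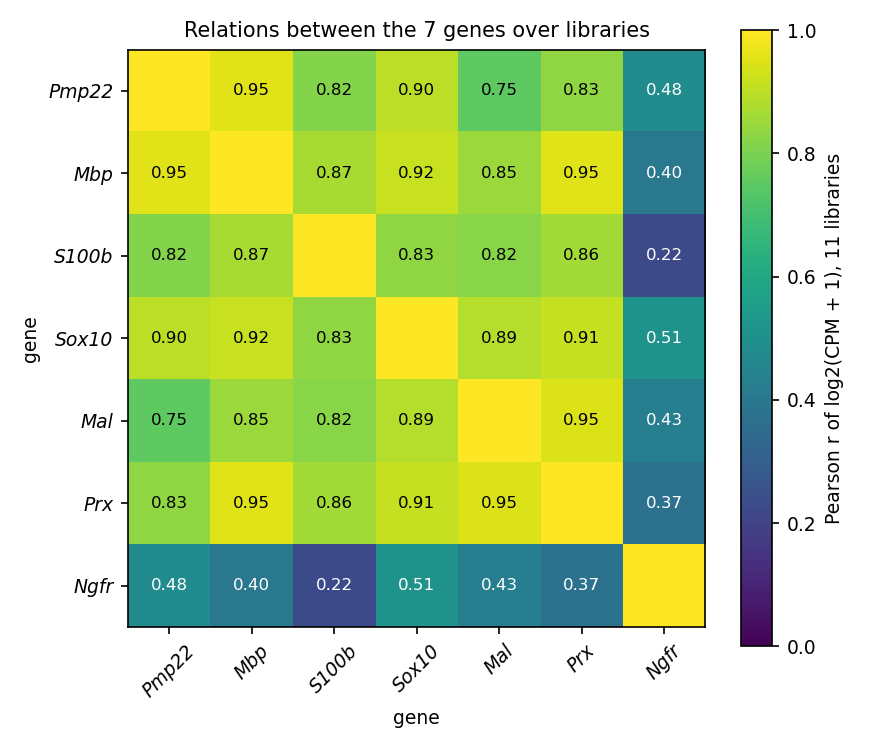
Pearson r of log2(CPM + 1) over 11 libraries for each pair of the 7 genes (colour scale from 0 to 1, value printed in each cell). The pairs without Ngfr lie between 0.75 and 0.95 and those with Ngfr between 0.22 and 0.51.

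As a ratio to Mbp, the library-to-library range of the other genes narrowed to different extents. The highest over the lowest library was 2.61 for the CPM of Pmp22 and 1.48 for its ratio to Mbp, and 4.93 and 1.63 for Prx. For the regulator Sox10 the range went from 3.02 to 1.67, for S100b from 4.91 to 2.18 and for Mal from 5.26 to 2.27. For Ngfr it was 4.84 in CPM and 3.77 as a ratio, the least narrowing of the 6, and its coefficient of variation did not narrow (43.4% in CPM and 44.0% as a ratio). The ratios of Prx and S100b to Mbp were highest in EV-depleted replicate 4, that of Sox10 in young serum replicate 1, that of Pmp22 in saline replicate 4 and those of Mal and Ngfr in saline replicate 2.

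Some of the other myelin genes had a profile like that of the 7 genes. Pearson r with the mean of the 7 over the 11 libraries, given as a description, was at least 0.8 for 7 of 20 other genes of myelinating Schwann cells that passed the filter (of 24 listed), against 0.417% of the other 13180 tested genes, and its median was 0.69 against 0.24. The 7 were the receptor Gpr37l1 (0.93), Ncmap (0.90), the adhesion molecule Cadm4 (0.89), the periaxin partner Drp2 (0.86), the tight junction protein Cldn19 (0.84), the Schwann cell signal Dhh and the plasmolipin gene Pllp (both 0.83). Mag was at 0.78, whereas Egr2, the myelin transcription factor, was at 0.47, Erbb3, the neuregulin receptor, at 0.44, and Art3, with the highest CPM of the list, at 0.18. Of 6 genes of the node of Ranvier, 1 reached 0.8 (Nfasc, 0.88; median of the list 0.39), as did 1 of 8 neurotrophic factors and receptors (Cntf, a trophic factor made by myelinating Schwann cells, 0.81; median 0.28). The median r was 0.63 for 7 perineurial and endoneurial fibroblast genes, 0.54 for 9 genes of non-myelinating and repair Schwann cells, 0.43 for 8 markers of fibro-adipogenic progenitors, 0.41 for 16 lipid synthesis genes and 0.40 for 12 neuregulin and ERBB signalling genes, with none at 0.8 in these 5 lists. It was -0.05 for 11 neuromuscular junction genes of the muscle fibre, -0.00 for 8 denervation response genes and -0.15 for 7 muscle fibre markers. The number of tested genes at 0.8 or above, 55, moved with single libraries: leaving out EV-depleted replicate 4 gave 32, saline replicates 4 and 6 gave 103 and 250 when omitted singly and 449 when omitted together, and young serum replicates 1 and 2 gave 83 and 163. Among the other myelin genes the count was 5 to 12 when 1 library was left out, 12 being the value without saline replicate 4, and 4 after median-of-ratios scaling.

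**Figure D5:**
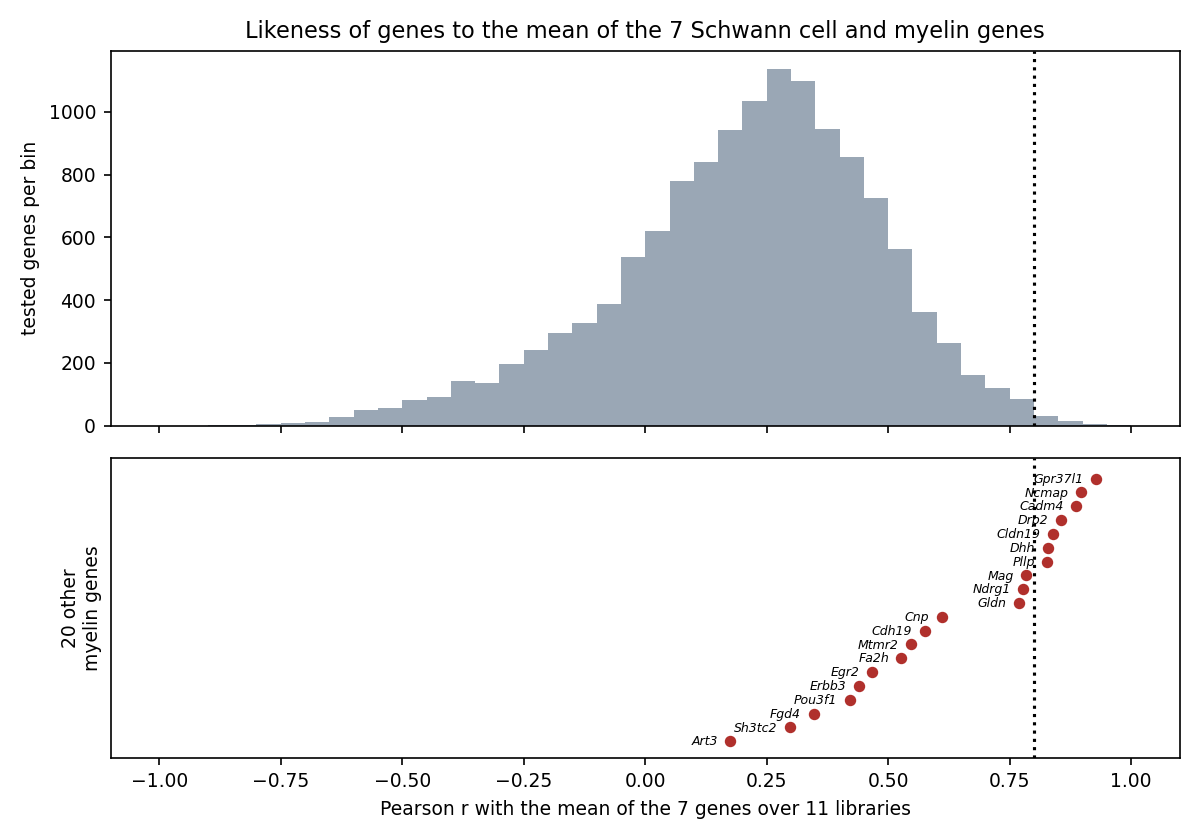
Upper panel, number of the other 13180 tested genes (y axis) by their Pearson r with the mean of the 7 genes over 11 libraries (x axis, bins of 0.05); lower panel, r of the 20 other myelin genes on the same axis, with 0.8 dotted. Of the myelin genes, 7 lie at or beyond 0.8, and Art3 is the lowest at 0.18.

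Gene by gene, the 3 genes with the most similar profile among those reported here, by Pearson r over the 11 libraries, were Mbp, Tcea1 and the plasmolipin gene Pllp for Pmp22 (0.95, 0.95 and 0.93) and Pmp22, Prx and Plekha4 for Mbp (0.95, 0.95 and 0.93). Sox10 was nearest to Gpr37l1 (0.94), Crebl2 (0.94) and Ufm1 (0.93), Mal to Prx (0.95), Foxc1 (0.91) and Spp1 (0.91), and Prx to Mbp, Mal (both 0.95) and Plekha4 (0.93). S100b was nearest to Sema3b (0.93), Sco1 (0.92) and Bcas1 (0.92), none of them among the 7. Ngfr was nearest to Fbln5 (0.87), an elastic fibre gene, and to Prmt6 and Mtfmt (both 0.86), with no myelin gene among the 3.

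Several of the genes are known outside Schwann cells, Prx in endothelium, S100b in fat and Pmp22 and Ngfr in stromal cells, so each was set against markers of 6 other cell types. Of these 42 relations, 0 passed at an adjusted p of 0.05 by Pearson r (permutation test), nor by rho, after subtraction of group means, or without saline replicates 4 and 6. The highest r was 0.67 between Pmp22 and the mean of 8 pericyte and smooth muscle markers (p = 0.0239, rho = 0.69 with p = 0.0221, adjusted p = 0.305 and 0.382). Without the 2 libraries farthest from the median of Pmp22 it was 0.38, and after subtraction of group means it was 0.79 (permutation p = 0.00347, adjusted p = 0.109). After that subtraction S100b had r = 0.75 with the pericyte markers and 0.76 with those of fibro-adipogenic progenitors (permutation p = 0.00777 and 0.00703, adjusted p = 0.109 for both). The relation with the pericyte markers was positive for every gene, with r from 0.37 (Mal) to 0.67, and from 0.44 to 0.79 after the subtraction. For Sox10 r was 0.67 and rho 0.73 (permutation p = 0.0261 and 0.0142, adjusted p = 0.305 and 0.382). The positive sign was not particular to the pericyte markers, as 36 of the 42 relations had it. With markers of fibro-adipogenic progenitors r ran from 0.24 (Mal) to 0.58 (Pmp22). With muscle fibre markers r ran from -0.61 (Ngfr, permutation p = 0.0481, adjusted p = 0.305) to 0.02 (S100b). After the subtraction it ran from -0.67 (Sox10) to -0.29 (S100b). S100b had r = 0.26 and rho = 0.45 with adipocyte markers (p = 0.409 and 0.163, adjusted p = 0.597 and 0.448), and without its 2 farthest libraries r was 0.48. Prx had r = 0.12 with endothelial markers (permutation p = 0.714, adjusted p = 0.81). Ngfr had r = 0.53 with markers of fibro-adipogenic progenitors (permutation p = 0.096, adjusted p = 0.366). The summed pericyte and smooth muscle markers did reach their highest value, 741 CPM, in EV-depleted replicate 4, the library highest for the myelin genes, and their range was 418 to 706 CPM in saline and 589 to 666 CPM with young serum. Their part in the result was not tested.

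The other genes of the pathway, taken from lists of nerve, junction and lipid synthesis genes, numbered 104 that could be tested. Of these, 0 passed at a limma adjusted p of 0.05 in any comparison, where the background was 0% each time, and 12, 12 and 4 had an unadjusted p under 0.05 for young serum against saline, EV-depleted serum against saline and the sera against each other, where 21.9%, 12.1% and 2.23% of all tested genes did. Without saline replicates 4 and 6 the counts against saline were 11 and 14, against 9.68% and 7.03% of all tested genes, and 0 again passed the adjusted threshold. Among the 20 other myelin genes, 12 were lower and 8 higher with young serum than in saline (median log2 difference -0.06), 14 higher and 6 lower with EV-depleted serum (0.07), and 17 lower and 3 higher between young and EV-depleted serum (-0.14). Without saline replicates 4 and 6 the count for young serum turned, to 16 higher and 4 lower than in saline (0.13, against 0.05 over all tested genes), and with EV-depleted serum 18 were higher and 2 lower (0.27, against 0.06). Groups free of overlap were found for 1 of the 20 genes, Erbb3, with EV-depleted serum against saline and against young serum, where 7.42% and 6.11% of all tested genes had them. It averaged 5.10 ± 1.44 CPM (n = 3) with EV-depleted serum against 3.06 ± 0.250 CPM (n = 4) in saline (log2 difference 0.56 ± 0.20, limma adjusted p = 0.404) and 3.47 ± 0.877 CPM with young serum, below the EV-depleted libraries. Without the pair of saline libraries the difference from saline was 0.54 ± 0.25.

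Of 9 tested genes of non-myelinating and repair Schwann cells, 4 were higher and 5 lower in each comparison with saline (5 and 4 with young serum, 7 and 2 with EV-depleted serum, without saline replicates 4 and 6). Ncam1, an adhesion molecule of immature Schwann cells and of denervated fibres, averaged 4.52 ± 0.791 CPM with young serum and 3.14 ± 0.304 CPM in saline without overlap (0.41 ± 0.16, limma adjusted p = 0.198; 0.34 ± 0.20 without the pair). With EV-depleted serum Ncam1 averaged 4.73 CPM, a log2 difference from saline of 0.39 ± 0.21 without the pair. Jun, the transcription factor of the repair state that many cell types share, averaged 135 ± 12.1 CPM with EV-depleted serum against 96.0 ± 17.0 CPM in saline, also without overlap (0.50 ± 0.13, limma adjusted p = 0.350; 0.58 ± 0.12 without the pair). With young serum Jun averaged 120 CPM, a log2 difference from saline of 0.42 ± 0.11 without the pair. Neither passed the threshold, nor did Cryab and Gdnf, whose groups did not overlap between the sera. Of the trophic factors, Cntf averaged 1.43 ± 0.415 CPM with young serum and 3.30 ± 1.76 CPM with EV-depleted serum without overlap (-0.76 ± 0.30), in the direction of the myelin genes it varied with. Of 8 dystroglycan and laminin partners of periaxin, 7 were higher than in saline with each serum (median log2 difference 0.34 and 0.32, and without the pair 0.31 and 0.37, again with 7 higher), while Prx itself differed by -0.11 with young serum, and by 0.17 without the pair. Over all tested genes the medians were -0.02 and -0.00, and 0.05 and 0.06 without the pair. The median r of this list with the mean of the 7 genes was 0.39, with Drp2 at 0.86 and Dag1, at 144 to 318 CPM, at 0.27. In that list Sgcd, a sarcoglycan that the muscle fibre also expresses, averaged 10.2 ± 2.51 CPM with young serum against 5.32 ± 1.27 CPM in saline without overlap (0.82 ± 0.30, limma adjusted p = 0.185; 0.81 ± 0.39 without the pair). With EV-depleted serum Sgcd averaged 9.95 CPM, a log2 difference from saline of 0.66 ± 0.41 without the pair. At the junction, Ache, the acetylcholinesterase that clears the transmitter, averaged 21.8 ± 2.37 CPM with EV-depleted serum, below all libraries of saline (35.8 ± 7.95 CPM, log2 difference -0.67 ± 0.17, or -0.69 ± 0.15 without the pair, limma adjusted p = 0.333) and of young serum (37.1 ± 4.56 CPM). Colq, Etv5 and the denervation gene Gadd45a were likewise without overlap and lower with EV-depleted serum than in saline (log2 differences -0.25, -0.40 and -0.69, and -0.26, -0.38 and -1.02 without the pair), and none passed the threshold. With young serum and without the pair, Gadd45a differed from saline by -0.92 ± 0.29 and Etv5 by -0.05 ± 0.18. Colq was also without overlap and lower with young serum than in saline (-0.18 ± 0.12, and -0.20 ± 0.14 without the pair). Over the 104 genes of these lists, groups free of overlap numbered 3, 6 and 5 in the 3 comparisons, against 12.2%, 7.42% and 6.11% of all tested genes. Axon transcripts gave little to set beside the glial ones. Nefm, Nefh and Gap43 were at or below 0.285 CPM in every library, the 7 measured axon genes summed to 6.87 to 21.4 CPM, and Nefl, Chat, Slc18a3 and Snap25 were not analysed here.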

How the data were processed

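RNA of 11 libraries was analysed from the deposited table of CPM, which by its values the authors scaled to 1000000 per library over 18269 genes, adding 0.0001 to each value. Deposited TPM proved to be CPM divided by the genomic span of each gene (total 288820) and served as an alternative. FastQC, STAR, DESeq2 and mm10 are listed in the submitters' processing notes, with neither versions nor roles. Of the values from 0.01 to 1 CPM, 75.6% to 79.0% were whole multiples of 1 read within 0.1 reads, too few to rebuild counts, so no count model was fitted. Genes reaching 1 CPM in 3 or more libraries (13187; 5082 removed) were tested as log2(CPM + 1), a scale that understates changes of low genes, with limma 3.58.1 in R 4.3.3, 3 groups in 1 model, eBayes with trend, two-sided, Benjamini-Hochberg over all 13187 genes at 0.05. The pipeline was tested on simulated data. Exact permutation tests of each gene and permutation tests of correlations used Python 3.11.15 and scipy 1.17.1. Gene positions are those deposited with the values, and exon lengths and overlapping genes came from GENCODE M21. The GENCODE start of Prx, 27499324, lies downstream of the deposited one. Named genes were the 7 genes, those of the lists with high CPM or groups without overlap, and the 3 genes most like each of the 7 by Pearson r; other genes given with an r against the mean of the 7, and the values without saline replicates 4 and 6 for the lists, were chosen after the values were seen. Some genes are not reported here and were left out of the lists and of the genes named. The 7 genes and the lists were chosen with earlier results of these data known. Alternatives were other pseudocounts, filters, scalings, variance models, the TPM table, a replicate block and leaving out libraries.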

Additional observations from a re-analysis of the deposited data

Results flagged for a closer look

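Of 14 tests of a distant library (each of the 7 genes in saline and in young serum, the groups of 4), 1 found one. S100b in young serum replicate 1, at 1.86 CPM against 0.843 to 0.990 CPM in the other 3, had a gap to its neighbour of 0.855 of the group's range, above Dixon's 95% critical value for a group of 4. Chance gives about 1 in 20 such results. The same library was the highest of its group for all 7 genes, and without it the log2 difference of S100b between young serum and saline was -0.23 instead of -0.09, not past the limma threshold in either case.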

How the results depend on the processing

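No alternative brought any of the 7 genes past an adjusted p of 0.05 in limma; the smallest was 0.0508, for S100b with EV-depleted serum against saline under array weights. Of 372 log2 differences of the 7 genes under alternatives, 339 kept their direction and 33 reversed, in 11 of 21 results; the cause was not tested. With array weights, young serum against saline gave 0.053 for Mbp, 0.163 for S100b, 0.239 for Sox10, 0.282 for Mal, 0.276 for Prx and 0.0139 for Ngfr, and EV-depleted serum gave 0.266 for Pmp22. Omitting saline replicates 4 and 6 gave 0.0602, 0.167, 0.192, 0.00896 and 0.168 for Mbp, S100b, Sox10, Mal and Prx, and 0.327 for Pmp22 with EV-depleted serum. When 1 library was omitted, young serum against saline ranged from -0.23 to 0.033 for S100b, -0.278 to 0.0753 for Sox10, -0.304 to 0.0986 for Mal and -0.395 to 0.151 for Prx. EV-depleted serum against saline ranged from -0.395 to 0.167 for Pmp22, -0.212 to 0.398 for Mbp and -0.0956 to 0.357 for Sox10, and the contrast of the sera from -0.443 to 0.031 for Sox10 and -0.0239 to 0.26 for Ngfr. Genes called among all tested, 0 in each comparison, became 3441, 1794 and 24 with array weights (young serum and EV-depleted serum against saline, and the sera against each other). They ranged from 0 to 251 and from 0 to 5 against saline when 1 library was omitted, and 2 were called for EV-depleted serum without saline replicates 4 and 6. Genes with r of at least 0.8 numbered 17 after median-of-ratios scaling, 149 after subtraction of group means, 449 without saline replicates 4 and 6 and 32 to 250 when 1 library was omitted; for the other myelin genes (7) the first and the last 2 of these settings gave 4, 12 and 5 to 12. The values cannot settle whether equal replicate numbers mark paired libraries. Deviations of same-numbered libraries correlated from -0.28 to 0.30 and those of different-numbered ones from -0.50 to 0.54. Replicate 1 of young serum and replicate 6 of saline have no partner, so a replicate block leaves them out of its estimates. With the block, 6 genes were called for EV-depleted serum against saline, Pmp22 was at 0.0377 there, and none of the 7 was called. At an unadjusted p under 0.05 the block gave 1 and 0 of the 7 for young serum and EV-depleted serum against saline (15% and 10.5% of all tested genes), and array weights gave 0 for young serum against saline and 1 between the sera (41.8% and 13.6%).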
